A study of Mus musculus with 6 samples.

Results

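The genes described here were higher in neural progenitor cells (NPCs) than in embryonic stem cells (ESCs) and lie next to poised enhancers that SOX2 occupied in ESCs. Of the 17144 mouse genes measured on the arrays, 160 were chosen. A gene was taken when its symbol stood both in the list of genes nearest SOX2-bound poised enhancers in ESCs and among the first 1999 genes of the study's comparison of NPCs with ESCs, which is sorted by the rise in NPCs. Of the 224 symbols in both, 53 were left out because SOX2 also bound their promoter or an active enhancer near them in ESCs, and 11 because they belong to families treated apart (such as Slc, Sema, Pcdh and Sox genes). The genes were thus chosen by the difference between the NPC and ESC arrays, which is given below as a description with no test. The lists of bound regions come from ChIP-Seq that is not part of these arrays. The list of active enhancers was held in full for 12 chromosomes only, which carry 75 of the 160 genes, so an active enhancer near some of the other 85 may have been missed.

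RNA was measured on Affymetrix expression arrays in wild type V6.5 ESCs, a blastocyst-derived line of 129SvJae/C57B6 F1 background grown with serum and LIF, and in wild type NPCs derived from those ESCs in vitro and grown in N3 medium, to which the study's methods add bFGF and EGF. Both groups had 3 biological replicates, with 1 array each. All arrays thus come from 1 cell line, and the NPCs are cultured cells of no stated brain region. In bulk RNA of this kind, fewer expressing cells and less RNA per cell cannot be told apart.

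Enhancers are stretches of DNA, often far from a gene's start, at which transcription factors gather to raise the gene's transcription. An active enhancer carries acetylation of histone H3 at lysine K27 (H3K27Ac), whereas a poised one carries methylation at lysine K4 (H3K4me1) without that acetylation and is commonly found near genes that are used at a later stage of development. SOX2, an HMG-box factor, is made in pluripotent ESCs and in NPCs alike, and the study compared its sites between them. Each enhancer was assigned by the study to its nearest gene, and no array value shows which gene an enhancer acts on.

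The array values of Pou5f1 followed the labels. Pou5f1, the pluripotency factor OCT4, read 12.42, 12.45 and 12.46 in ESCs and 3.68, 3.83 and 3.61 in NPCs. The neural progenitor markers Sox9, Nes, Slc1a3, Fabp7 and Vim were each higher in every NPC array than in every ESC array. Nearly all names came from the list of genes that rise in NPCs, so the rise of these markers is no check of the labels. No gene of the lists of fibroblast, microglial and endothelial markers could be named in this way. Their levels are thus not known here, and nothing is read from this about the presence of such cells. NPC replicate 3 stood apart from the others, with correlations of 0.978 to 0.979 to NPC replicates 1 and 2 across genes against 0.997 between those 2 arrays and 0.996 to 0.998 among ESC arrays. The median difference, the count of genes called and the genes that this array set apart are given with and without it.

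All values below are robust multi-array average (RMA) values on the log2 scale, so that a difference of 1 is a doubling, and errors of differences are standard errors of the limma fit over all genes with n = 3 arrays in each group. The median of the 160 differences between NPCs and ESCs was 1.62, with quartiles of 1.12 and 2.25. Over all 17144 genes the median difference was -0.04. limma called 157 of the 160 genes higher in NPCs at an adjusted p under 0.05 and more than 1.5-fold, against 15.4% of all genes, and in 159 every NPC array was above every ESC array, against 26.1% of all genes. Both counts follow from how the genes were chosen, and nothing is read from them. Without NPC replicate 3 the median difference was 1.64 and 159 genes were called. The 3 genes that limma did not call on all arrays were Foxd1, Arhgap29 and Vwc2, in each of which NPC replicate 3 departed from the other NPC arrays.

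Most of the genes differed by less than 4-fold. The difference was more than 2-fold in 136 genes (85.0%), more than 4-fold in 54 (33.8%) and more than 8-fold in 21 (13.1%). Among the 1839 other genes of the comparison list, 82.2% were more than 2-fold, 29.5% more than 4-fold and 11.8% more than 8-fold higher. At the low end, Psat1, an enzyme of serine synthesis, differed by 0.85 ± 0.11, Thoc7, a subunit of the THO complex of mRNA export, by 0.85 ± 0.09, and Clasp1, which binds the growing ends of microtubules, by 0.84 ± 0.11. The comparison list at hand ended at Hdhd3, which is not one of the 160, with a difference of 0.8339, and the next deposited gene, which has no name here, also had 0.8339. The bottom of the range is thus set by where the list stops.

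**Figure D1:**
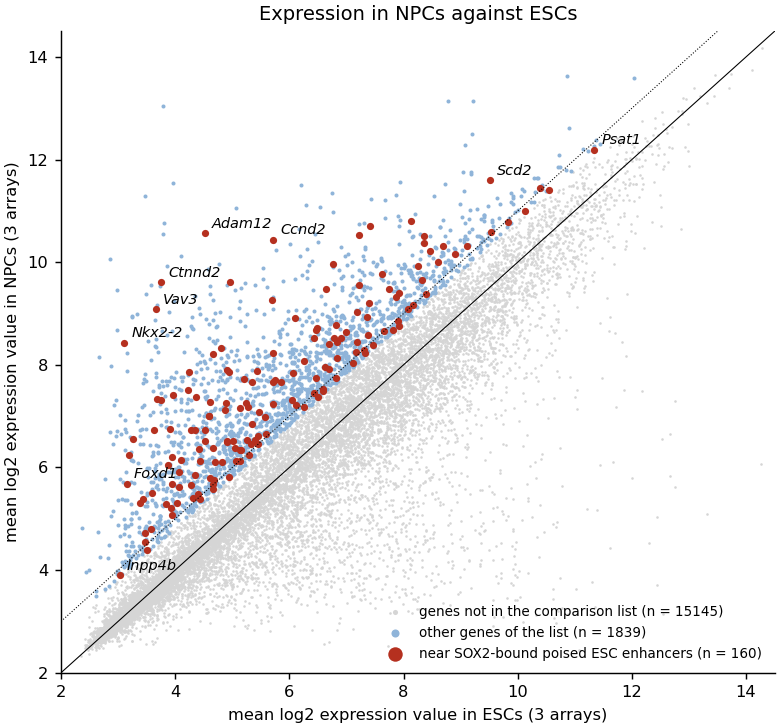
Mean log2 expression value of each gene in NPCs (vertical axis) against ESCs (horizontal axis), 3 arrays each, with the 160 genes near SOX2-bound poised ESC enhancers in red, the 1839 other genes of the comparison list in blue and 15145 genes with no place in that list in grey. The solid line marks equal values and the dotted line a 2-fold rise, and the red points run from Inpp4b at the bottom left, with means of 3.03 and 3.90, to Psat1 at the top right, with 11.34 and 12.20.

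In ESCs the genes were spread over nearly the whole range of array signals. A gene's level in ESCs was expressed as its percentile among the 17144 genes of an array, averaged over the 3 arrays. Probe sets differ in how strongly they respond, so a percentile ranks array signals and not amounts of RNA. No detection limit was set, so a low signal is not told apart from background. Fold values here are thus ratios of signals. The median percentile of the 160 genes was 45.5, 46.6 and 45.9 in the 3 ESC arrays and 73.2, 73.0 and 75.3 in the 3 NPC arrays. In ESCs, 92 genes (57.5%) were below the median of all genes, 25 (15.6%) were below the 25th percentile and 26 (16.2%) were above the 75th. The other 1839 genes of the comparison list had 48.6% below the median, 15.6% below the 25th percentile and 17.6% above the 75th.

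The genes near poised sites thus sat somewhat lower in ESCs than the rising genes beside other SOX2 sites. Their median percentile over the ESC arrays was 45.7, against 53.4 for 78 rising genes found only in the list of active enhancers, 52.2 for 70 found only in the list of bound promoters and 50.9 for all 1839 others. On the 12 chromosomes for which the list of active enhancers was complete, the medians were 43.8 for 75 genes near poised sites and 53.4 for 72 near active ones. On the other chromosomes, the 85 genes near poised sites had a median of 49.3, close to the 50.9 of the 1839 others. The level in NPCs was lower as well, with medians of 73.6 near poised sites, 79.3 near active ones and 79.3 for bound promoters. Since the ESC level entered the choice through the difference, these are descriptions with no test. The 53 rising genes that had a poised site together with a promoter or active site had a median ESC percentile of 45.2, a median NPC percentile of 80.1 and a median difference of 1.97.

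**Figure D2:**
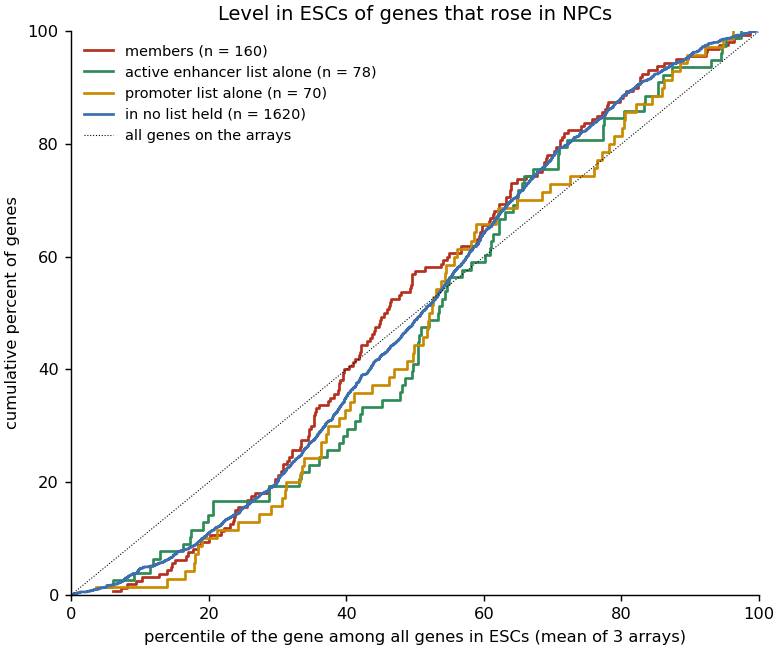
Cumulative percent of genes (vertical axis) at or below each percentile of the ESC arrays (horizontal axis, mean of 3 arrays) for the 160 genes near SOX2-bound poised enhancers (members), 78 rising genes in the active enhancer list alone, 70 in the promoter list alone and 1620 in none of the lists held. The red line is above the other lines around the middle of the scale, where 57.5% of the genes near poised sites are below the median of all genes, against 41.0% near active enhancers and 44.3% with bound promoters.

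By known role, as assigned here from textbook knowledge, 30 of the 160 genes encode transcription factors or chromatin proteins, 29 act in guidance, adhesion or the matrix, 30 in signalling, receptors or the cell cycle, 24 on small GTPases, the cytoskeleton or traffic, 24 are enzymes or carriers of lipid, sugar and secretory pathways, and 23 were not assigned. The other 1839 genes were not put into classes, so the classes are compared within the 160 only. Families left out, such as Sox and Sema genes, would have belonged to some of them. The transcription factors and chromatin proteins had the highest median difference of the 6 classes, 2.23, and 17 of the 30 differed more than 4-fold. None of them was above the 75th percentile of ESC signals, and 24 were below the ESC median. The guidance and adhesion class was the lowest in ESCs, with a median percentile of 33.3, while the lipid and secretory class was at 69.4 and the GTPase and cytoskeleton class at 63.5.

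Several of the transcription factors pattern the neural tube and brain. Nkx2-2 (ENSMUSG00000027434), a homeodomain factor of the ventral neural tube that also acts in the oligodendrocyte lineage, read 3.16, 3.00 and 3.16 in the ESC arrays and 9.38, 9.24 and 6.68 in the NPC arrays. It was among the lowest signals in ESCs and far above them in all NPC arrays, with NPC replicate 3 the lowest of these. The difference of means was 5.33 ± 0.67, or 40.1-fold. Emx2, a homeobox factor of the dorsal forebrain, read 3.05, 3.56 and 2.98 in ESCs and 6.65, 6.34 and 5.73 in NPCs. Pou3f3, the class III POU factor BRN1, read 5.16, 4.79 and 4.89 in ESCs and 7.68, 7.55 and 8.33 in NPCs, with NPC replicate 3 the highest. En2, a homeobox factor of the midbrain and hindbrain, had the smallest difference of the class at 0.87 ± 0.12 and was already at percentile 59.7 in ESCs.

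The Iroquois homeobox genes Irx3 and Irx5, which lie in 1 gene cluster and act in neural patterning, both rose. Irx5 read 3.48, 3.98 and 4.29 in ESCs and 6.88, 6.44 and 6.91 in NPCs, and Irx3 5.32, 5.43 and 5.31 in ESCs and 7.71, 7.32 and 7.97 in NPCs. The difference of means was 2.82 ± 0.22 for Irx5 and 2.31 ± 0.16 for Irx3. Pbx3, a TALE homeobox gene whose product pairs with HOX and other homeodomain proteins, rose by less, by 1.02 ± 0.20. It had an ESC mean of 6.43 ± 0.16 (SD, n = 3) and its lowest NPC array was at 7.21.

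Ebf1, a helix-loop-helix factor of B cells and of differentiating neurons, read 3.70, 3.73 and 3.62 in ESCs and 7.42, 7.37 and 7.20 in NPCs. Tox3, an HMG-box protein, read 5.65, 5.95 and 5.47 in ESCs and 9.45, 9.39 and 8.92 in NPCs. They followed Nkx2-2 as the largest differences of the class, with 3.64 ± 0.09 and 3.56 ± 0.18, and their NPC arrays had SDs of 0.11 and 0.29. Ssbp2, a partner of the LIM-domain cofactor LDB1, differed by 3.29 ± 0.10, Stox2, a storkhead box protein, by 2.51 ± 0.08, and Klf12, a Kruppel-like repressor, by 2.44 ± 0.12. In these 3 genes the SD over the NPC arrays was 0.14, 0.06 and 0.19.

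Zinc finger proteins made up another group. Zfp521, which acts in early neural differentiation, differed by 2.37 ± 0.14, and Zfp608 by 2.25 ± 0.11. Tshz3, a teashirt family member, read 3.84, 3.94 and 4.06 in ESCs and 6.30, 6.43 and 5.86 in NPCs, a difference of 2.25 ± 0.16. Zbtb20, a BTB zinc finger repressor with a role in hippocampal development, differed by 2.21 ± 0.09, and its relative Zbtb7c by 1.60 ± 0.10. None of the 5 overlapped between the cell types. Every NPC array was above every ESC array in 159 of the 160 genes, against 26.1% of all genes, which follows from the choice.

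Factors better known from mesenchyme, blood or other tissues were also present. Twist1, a helix-loop-helix factor of mesenchyme and neural crest, read 4.45, 4.25 and 4.14 in ESCs and 6.66, 6.35 and 7.16 in NPCs. The forkhead genes Foxc1 and Foxd1 went different ways in NPC replicate 3. Foxc1 read 3.99, 3.82 and 4.0 in ESCs and 5.34, 5.21 and 6.47 in NPCs, with replicate 3 highest. Foxd1 read 3.11, 3.11 and 3.23 in ESCs and 7.05, 7.02 and 2.99 in NPCs, so that 2 NPC arrays were far above ESCs and the other was below all ESC arrays, the only overlap among the 160 genes, and the difference of means was 2.54 ± 1.02. Bach2, a leucine zipper repressor of lymphocytes, differed by 1.00 ± 0.26, Creb3l2, a factor of the endoplasmic reticulum, by 1.28 ± 0.08, Lcorl by 1.19 ± 0.14 and the coregulator Mn1 by 0.94 ± 0.19.

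The chromatin proteins had smaller differences than the leading factors. Mllt3 (AF9), a reader of acylated histones that belongs to the elongation machinery, differed by 2.04 ± 0.21. L3mbtl3, an MBT-domain reader of methylated lysine, differed by 1.89 ± 0.14, and Zmynd11, a reader of methylated histone H3, by 1.85 ± 0.12. The remodeler Chd7 and the Polycomb subunit Phc3 were at percentiles 60.9 and 56.7 in ESCs and differed by 0.93 ± 0.11 and 0.92 ± 0.15.

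**Figure D3:**
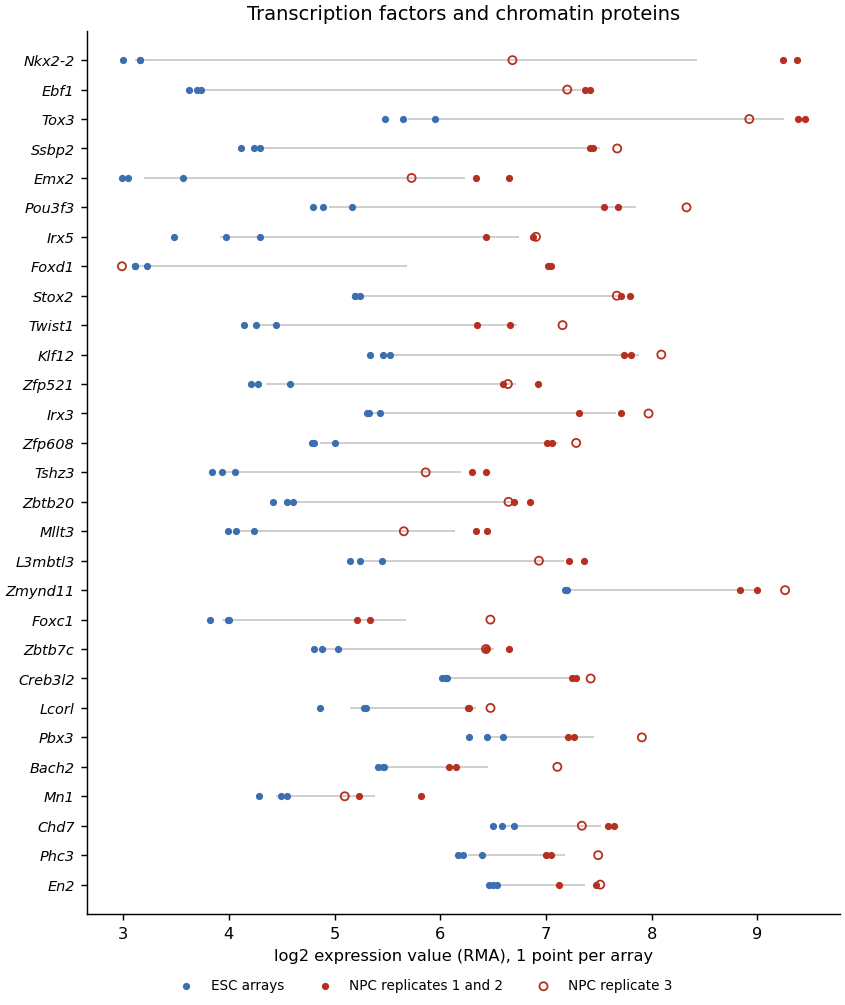
Log2 expression value (horizontal axis) of 29 of the 30 transcription factors and chromatin proteins in every array, ordered by the difference of means, with ESC arrays in blue, NPC replicates 1 and 2 as filled red points and NPC replicate 3 as open red circles. Grey lines join the means of the cell types, and in every gene shown but Foxd1, where NPC replicate 3 is at 2.99, the red points are all to the right of the blue ones.

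The 2 largest differences of all belonged to the class of guidance, adhesion and matrix genes. Adam12 (ENSMUSG00000054555), a membrane-anchored metalloprotease, read 4.16, 4.29 and 5.10 in ESCs and 10.52, 10.66 and 10.50 in NPCs. Ctnnd2 (ENSMUSG00000022240), delta-catenin, an intracellular protein that binds the tails of cadherins, read 4.0, 3.47 and 3.78 in ESCs and 9.67, 9.59 and 9.57 in NPCs. The SD over the NPC arrays was 0.08 and 0.05, and the difference of means was 6.04 ± 0.24 (65.9-fold) for Adam12 and 5.86 ± 0.14 (58.0-fold) for Ctnnd2. Bai2, a brain adhesion receptor coupled to G proteins, read 4.40, 4.26 and 4.06 in ESCs and 7.65, 7.40 and 8.50 in NPCs, and Cdh4, R-cadherin, 4.90, 4.78 and 4.71 in ESCs and 8.42, 8.30 and 8.24 in NPCs.

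The class also held axon guidance genes, which are named here for their role and were chosen after their values were seen. The netrins Ntn1 and Ntn4, secreted guidance cues, differed by 1.80 ± 0.12 and 3.44 ± 0.16. Nrp1, the neuropilin receptor of class 3 semaphorins, read 4.05, 3.78 and 3.76 in ESCs and 6.35, 6.10 and 5.68 in NPCs. Efnb2, a membrane-bound ligand of EPH receptors, differed by 0.99 ± 0.15, and Rgma, a repulsive guidance molecule that binds neogenin, by 1.68 ± 0.20. Dab1, the intracellular adaptor of reelin signalling, read 4.41, 4.37 and 4.29 in ESCs and 7.32, 7.36 and 7.43 in NPCs, with an SD of 0.05 over the NPC arrays. Of the 29 genes of the class, 27 differed more than 2-fold and 8 were below the 25th percentile of ESC signals. Below that percentile were also 7 of the 30 transcription factors and chromatin proteins. Of all 17144 genes 4294 were below it, as follows from its definition, and nothing is read from the 8.

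**Figure D4:**
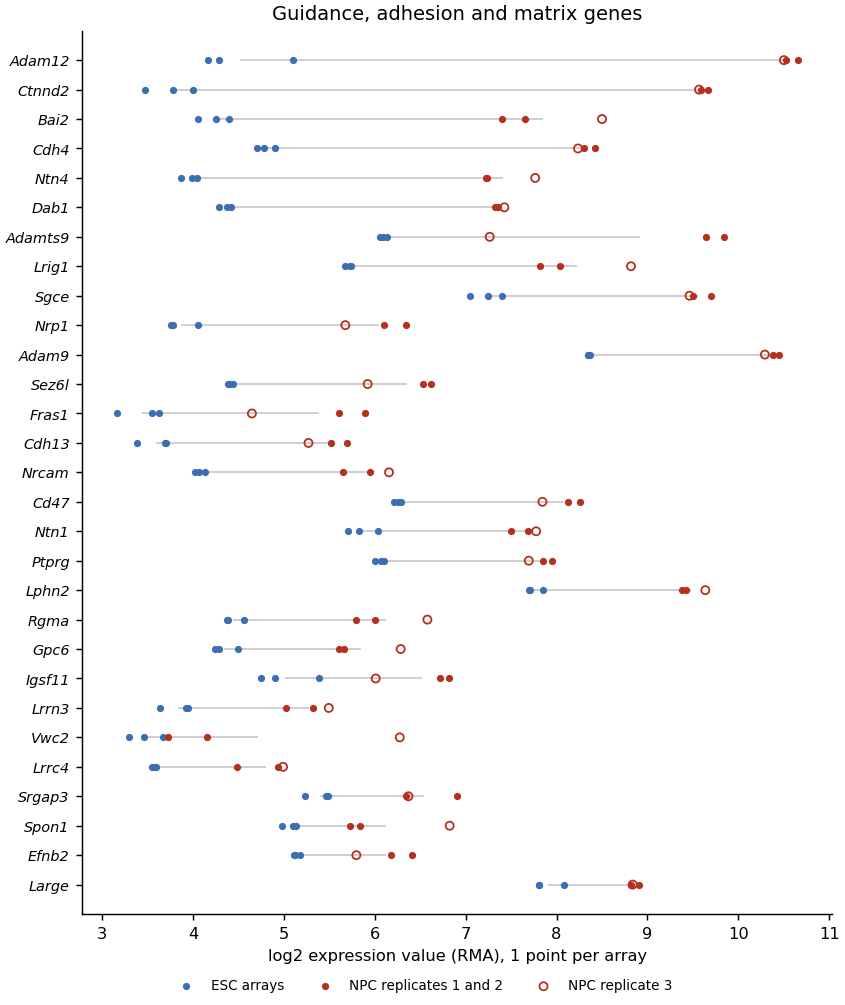
Log2 expression value (horizontal axis) of the 29 guidance, adhesion and matrix genes in every array, ordered by the difference of means, with ESC arrays in blue, NPC replicates 1 and 2 as filled red points, NPC replicate 3 as open red circles and grey lines between the means. Adam12 and Ctnnd2 have the widest gaps, and NPC replicate 3 is far from the other NPC arrays in Adamts9, at 7.26, and in Vwc2, at 6.28.

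Among signalling genes, Ccnd2 had the largest difference. It encodes cyclin D2, which drives the entry into S phase, and read 5.61, 5.79 and 5.74 in ESCs and 10.12, 10.07 and 11.13 in NPCs, a difference of 4.73 ± 0.27 or 26.5-fold. Ncald, the calcium sensor neurocalcin delta, read 4.90, 5.04 and 4.92 in ESCs and 9.53, 9.82 and 9.51 in NPCs. They went from percentiles 49.5 and 39.7 of the ESC signals to 96.5 and 93.3 in NPCs. Vash1, vasohibin, a tubulin carboxypeptidase, was already at percentile 69.1 in ESCs and differed by 3.31 ± 0.13. Grm3, a metabotropic glutamate receptor, was at percentile 10.3 in ESCs and is described below with NPC replicate 3.

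Other receptors for growth factors and transmitters in the class, and the ligand Kitl, had smaller differences than the receptor Grm3, at 3.29 ± 0.64. They too are named for their role, after their values were seen. Fgfr1, a receptor of the bFGF in the NPC medium, read 6.66, 6.74 and 6.46 in ESCs and 7.89, 7.88 and 8.08 in NPCs. Igf1r, the receptor of insulin-like growth factor, differed by 1.30 ± 0.09 and Bmpr2, a type II receptor of bone morphogenetic proteins, by 1.18 ± 0.09. Kitl, the ligand of the KIT receptor, differed by 2.40 ± 0.32. The purinergic receptors P2ry1 and P2ry12 differed by 1.28 ± 0.15 and 0.89 ± 0.13. P2ry12 read 3.54, 3.24 and 3.72 in ESCs and 4.43, 4.40 and 4.33 in NPCs. Even in NPCs, P2ry12 was at percentile 33.4.

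The regulators of small GTPases were led by Vav3, an exchange factor that activates Rac and related small GTPases. It read 3.70, 3.51 and 3.78 in ESCs and 8.85, 8.89 and 9.51 in NPCs, a difference of 5.42 ± 0.19 or 42.9-fold, and went from percentile 18.3 to 89.8. Chn2, beta2-chimaerin, which turns Rac off, read 4.71, 4.78 and 4.49 in ESCs and 7.74, 7.82 and 9.08 in NPCs. Rapgef4, the cAMP-gated exchange factor EPAC2 of RAP proteins, read 3.86, 3.59 and 3.43 in ESCs and 7.03, 7.28 and 5.89 in NPCs. Rtn1, a reticulon that shapes the endoplasmic reticulum of neural cells, read 6.73, 6.65 and 6.91 in ESCs and 9.55, 9.27 and 11.09 in NPCs. All 4 were separate between the cell types, as were 159 of the 160 genes by their choice and 26.1% of all genes. The SD over the NPC arrays was 0.37 in Vav3 against 0.75, 0.74 and 0.98 in Chn2, Rapgef4 and Rtn1. In this class 18 of 24 genes differed more than 2-fold, and only 6 were below the ESC median.

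Enzymes and carriers of lipid, sugar and secretory pathways had the highest median ESC percentile of the 6 classes, 69.4, but ranged widely, with 9 of 24 genes below the ESC median and 6 above the 75th percentile. Sec11c, a catalytic subunit of the signal peptidase, read 7.49, 7.45 and 7.31 in ESCs and 11.10, 10.78 and 10.21 in NPCs. Cpe, carboxypeptidase E, which trims peptide hormones and neuropeptides, read 8.25, 8.26 and 7.86 in ESCs and 10.47, 10.53 and 11.42 in NPCs. Papss1, which makes the sulfate donor for sulfated glycans, differed by 2.15 ± 0.10, and Scd2, a stearoyl-CoA desaturase, by 2.09 ± 0.13. In NPCs these 4 genes were between percentiles 94.1 and 99.1.

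Among the unassigned genes, Trim62, a ubiquitin ligase of the TRIM family, read 3.80, 3.81 and 3.64 in ESCs and 7.77, 7.37 and 6.80 in NPCs. Tmcc3, a membrane protein with coiled coils, differed by 2.98 ± 0.09. Rev3l, the catalytic subunit of the translesion polymerase zeta, differed by 2.37 ± 0.11, and Gcap14 by 1.96 ± 0.24. The class had the lowest median difference, 1.22, and 3 of its 23 genes differed more than 4-fold.

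The genes were chosen on the mean of all 3 NPC arrays, so a high value in 1 of them could bring a gene in. Without NPC replicate 3, the difference of 11 of the 160 genes was below 0.8339, where the comparison list at hand ended. Of these 11, 1, Vwc2, is among the genes that this array set apart. The 11 also included Bach2, at 0.67 without that array, Psat1, at 0.74, Phc3, at 0.76, Pbx3, at 0.80, and En2, at 0.80. The median SD of the 160 genes was 0.112 over the ESC arrays and 0.235 over the NPC arrays, and those of the other 1839 genes of the comparison list were 0.108 and 0.242. In 15 of the 160 genes (9.38%), NPC replicate 3 was more than 1 above both, or more than 1 below both, of the other NPC arrays, against 3.34% of all genes and 235 (12.8%) of the other 1839. It was higher in 7 genes, against 1.85% of all genes, and lower in 8, against 1.48%. The shares among the 160 and the other 1839 genes are partly set by the choice on the mean, nothing is read from their distance to that of all genes, and 1 array against 2 allows no test.

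The genes highest in NPC replicate 3 were of several classes. Grm3 read 5.73, 5.71 and 8.24 in the NPC arrays, against 3.29, 3.13 and 3.37 in ESCs. Rtn1 was 1.68 above the mean of the other NPC arrays, Chn2 1.30, Foxc1 1.20 and Ccnd2 1.03. Without that array the difference from ESCs was 2.65 for Rtn1, 3.12 for Chn2, 1.33 for Foxc1, 4.39 for Ccnd2 and 2.45 for Grm3. Vwc2, a secreted antagonist of bone morphogenetic proteins, read 3.46, 3.30 and 3.67 in ESCs and 4.15, 3.72 and 6.28 in NPCs, and its difference was 1.24 with all arrays and 0.46 without replicate 3. Sorcs1, a sorting receptor of neurons, read 3.89, 4.09 and 4.15 in ESCs and 4.81, 4.96 and 6.15 in NPCs, with differences of 1.27 and 0.85.

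In the other direction, 8 genes were lower in NPC replicate 3. Besides Foxd1 and Nkx2-2 they were Adamts9, a secreted protease of the matrix, with 9.65, 9.84 and 7.26 in NPCs, Rapgef4, and Arhgap29, which turns small GTPases off, with 8.96, 9.42 and 6.81 in NPCs against 6.66, 6.71 and 6.71 in ESCs. Without NPC replicate 3 the difference of Arhgap29 was 2.50 and that of Foxd1 3.88, and both were called by limma. Aacs, acetoacetyl-CoA synthetase, which feeds ketone bodies into lipid synthesis, read 6.92, 7.03 and 7.02 in ESCs and 9.13, 9.17 and 7.63 in NPCs. Grb14, an adaptor that inhibits the insulin receptor, read 4.45, 4.70 and 4.64 in ESCs and 7.48, 7.32 and 6.21 in NPCs, and Rgs17, which shortens G protein signals, 3.23, 3.52 and 3.40 in ESCs and 5.69, 5.74 and 4.48 in NPCs. In all 3 the lowest NPC array, replicate 3, was still above every ESC array, as held for 159 of the 160 genes. Without replicate 3 the difference was 6.20 for Nkx2-2, 3.65 for Adamts9, 3.53 for Rapgef4, 2.15 for Aacs, 2.80 for Grb14 and 2.33 for Rgs17.

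Cell type markers differed in that array too, and not all in the same way. Of the neural progenitor markers given above, Sox9, Slc1a3 and Fabp7 were 1.27, 1.10 and 0.72 above the mean of the other NPC arrays. Nes and Vim were 0.07 and 0.18 below it. The 2 named genes of a list of 8 neuron markers, Dcx and Syt1, were lower in replicate 3 than in the other NPC arrays. Dcx read 4.86, 5.06 and 3.76 and Syt1 read 6.93, 7.02 and 4.90 in NPCs, and the log2 of their summed level was 7.24 and 7.35 in NPC replicates 1 and 2, 5.44 in replicate 3 and 4.52 to 4.68 in ESCs. The 2 named genes of 5 astrocyte markers, Aldoc and S100b, were highest in replicate 3, with a summed level of 11.04 on the log2 scale against 10.51 and 10.52 in the other NPC arrays and 8.16 to 8.20 in ESCs. Of the 8 oligodendrocyte lineage markers, Olig1 and Olig2 could be named, with a summed level of 13.48 to 13.51 in all NPC arrays and 9.55 to 9.61 in ESCs. That sum mostly follows Olig1, the stronger signal, and the 2 genes went different ways in replicate 3. Olig2 read 11.07, 10.96 and 11.67 in the NPC arrays, and Olig1 read 13.21, 13.22 and 12.99. The part of cell composition in the departures of the 15 genes was not tested.

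**Figure D5:**
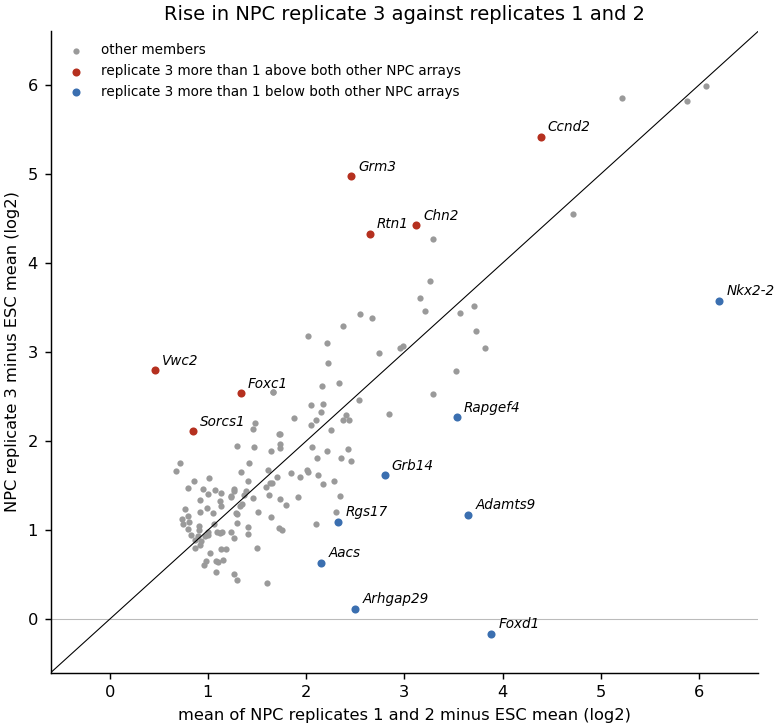
Difference from the ESC mean of NPC replicate 3 (vertical axis, log2) against that of the mean of NPC replicates 1 and 2 (horizontal axis, log2) for the 160 genes, with the line of equal values. The 7 genes in which replicate 3 is more than 1 above both other NPC arrays are red and the 8 in which it is more than 1 below are blue, and Foxd1 is the 1 point below 0 on the vertical axis.

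Most of the genes had a single listed site. In the rows held, 117 of the 160 genes had 1 listed SOX2-bound poised region, 32 had 2 and 11 had 3 or more, up to 4. The median difference was 1.54 in genes with 1 region and 1.80 in the 43 with 2 or more, and the median ESC percentiles were 45.0 and 46.1. Among the named genes, Adamts9 had 4 regions, while Tox3, Irx3, Zfp608 and Bach2 had 3 each. Genes with several regions thus included both large differences, such as Tox3, and small ones, such as Bach2.

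The promoters of the genes were examined for the motifs of SOX and POU factors, since the lists place SOX2 at distant sites of these genes. The 250 bases before the first listed RefSeq start of each gene (assembly GRCm38.p6) could be matched by symbol for 116 of the 160 genes. They were searched on both strands for CTTTGTT, the core that SOX proteins bind, and for ATGCAAAT, the octamer bound by POU factors, each counted on its own. The SOX core was found in 2 promoters (1.72%), against 2.87% of 1464 promoters of the other genes of the comparison list and 4.38% of 17492 promoters of protein-coding genes. The octamer was found in 1 (0.862%), against 1.64% and 1.61%. Genes with a SOX2-bound promoter in ESCs were left out of the 160 but not of the other sets. The sets also differed in GC content, as given below. The part of either in the shares was not tested, and nothing is read from the shares. The matches are shown here in capitals, 5′ to 3′ along the gene's strand, for Rtn1 (chr12:72235747-72235996, minus strand, SOX core read on the opposite strand), Lrrc4 (chr6:28831748-28831997, minus strand, SOX core on the gene's strand) and Stox2 (chr8:47352349-47352598, minus strand, octamer read on the opposite strand).
Rtn1: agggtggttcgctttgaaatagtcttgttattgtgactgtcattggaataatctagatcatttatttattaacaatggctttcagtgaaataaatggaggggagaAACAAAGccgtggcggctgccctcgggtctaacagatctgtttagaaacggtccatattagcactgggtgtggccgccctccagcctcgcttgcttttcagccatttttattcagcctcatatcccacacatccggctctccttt
Lrrc4: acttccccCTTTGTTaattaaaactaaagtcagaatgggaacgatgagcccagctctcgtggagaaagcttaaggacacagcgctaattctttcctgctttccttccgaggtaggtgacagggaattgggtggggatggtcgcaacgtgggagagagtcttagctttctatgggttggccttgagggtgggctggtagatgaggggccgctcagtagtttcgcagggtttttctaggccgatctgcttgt
Stox2: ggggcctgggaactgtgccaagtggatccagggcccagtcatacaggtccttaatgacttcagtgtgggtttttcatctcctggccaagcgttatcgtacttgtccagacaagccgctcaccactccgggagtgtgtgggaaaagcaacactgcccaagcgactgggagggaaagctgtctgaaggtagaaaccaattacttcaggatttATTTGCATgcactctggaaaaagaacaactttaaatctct

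The match is 145 bases before the start in Rtn1, 242 in Lrrc4 and 40 in Stox2, counted to its first base. These 3 genes had differences of 3.21 ± 0.44, 1.23 ± 0.14 and 2.51 ± 0.08. Lrrc4, a synaptic adhesion protein, is named for its promoter. A match describes letters only, and a promoter without one may still be bound.

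What most of the promoters shared was a high content of G, C and the dinucleotide CpG. The median GC content was 65.6% in the 116 promoters, 61.8% in those of the other genes of the comparison list and 55.2% over all protein-coding genes. The ratio of observed to expected CpG had medians of 0.778, 0.725 and 0.536, and it was over 0.6 in 77.6%, 67.8% and 45.2% of the promoters. Tox3 is shown as the promoter with the most CpGs of the transcription factor class, 40 in 250 bases with a GC content of 84.4% (chr8:90348253-90348502, minus strand), with each CpG in capitals.
Tox3: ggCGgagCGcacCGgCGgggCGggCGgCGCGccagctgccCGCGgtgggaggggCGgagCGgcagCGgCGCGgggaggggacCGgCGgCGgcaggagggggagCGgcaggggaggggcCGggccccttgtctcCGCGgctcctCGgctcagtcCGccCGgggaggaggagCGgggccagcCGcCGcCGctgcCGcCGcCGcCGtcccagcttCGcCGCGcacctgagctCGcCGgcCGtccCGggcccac

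The promoters of Rtn1, Stox2 and Lrrc4, which hold the motif matches, had GC contents of 45.2%, 49.6% and 51.2%, all below the median of the 116. Ebf1, at 40.0%, was lower still, and Nkx2-2 had 56.4%.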

How the data were processed

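The authors deposited log2 values made by RMA, 1 per Ensembl gene and array, under an updated probe annotation (BrainCDF). The sources used here give neither its version nor its build. RMA corrects background, quantile normalizes probes and summarizes them, so a shift of most genes at once would largely be removed. Of 17208 rows, 64 control rows were left out, and nothing was renormalized. Arrays had medians of 5.59 to 5.76. Arrays give no counts, and their number limits the precision.

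Names came from the study's comparison list, by matching all 6 array values within 0.0001. All 1999 rows at hand matched, and 2004 genes were named in all, so members of marker lists that did not rise are mostly unnamed. Symbols are those of that list and can be old. The authors' own fold changes and p-values in it were not used. Of the lists of SOX2-bound regions, 101 rows for poised and 1257 for active enhancers were not held. The genes, lists and classes were chosen with earlier results of these data known. Genes named with values were the 10 largest differences, all transcription factors and chromatin proteins, all that NPC replicate 3 set apart, the 4 largest of each other class and the 3 smallest, plus those said to be named for their role or promoter. A few genes that these rules name are not reported here.

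Differences came from R 4.3.3 and limma 3.58.1 (functions lmFit and eBayes on all 6 arrays, no covariates, Benjamini-Hochberg over 17144 genes), and the code was tested on simulated data. An exact permutation test of 3 against 3 arrays cannot go below p = 0.1 and was not run. The study's moderated Welch test, a variance trend, robust variances, other normalizations, a filter, array omission and other rules for the genes were alternatives. Plots used matplotlib 3.10.9 and pandas 2.3.3 under Python 3.11.15. Enhancer sequences are not shown, because no genome of the build of the lists was used here.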

Additional observations from a re-analysis of the deposited data

How the results depend on the processing

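The 157 genes called higher in NPCs became 158 with quantile normalization, with arrays centred on their medians and with the replicate number as a block, 157 with the moderated Welch test, a variance trend or robust variances, 133 at more than 2-fold, 110 with a filter at the median gene mean and 153 to 159 when 1 array was left out. The median difference of 1.62 was 1.69 with quantile normalization and 1.77 with arrays centred, which moves the median of all genes from -0.0355 to 0.119, and 1.54 to 1.65 when 1 array was left out. With the symbols left out for their family added, it was 1.67, and the median ESC percentile 44.2. With the symbols also in the promoter or active list added, these were 1.67 and 45.2, and 25 genes stood apart in NPC replicate 3. The ESC percentile of 45.7 fell to 22.1 among the genes kept by the filter, by its construction, and was 45.4 to 46.0 without 1 ESC array. The 15 genes apart in NPC replicate 3 were 8 with the filter and 43 at more than 1.5-fold. On the chromosomes with the active list held in full, an alternative chosen after seeing the data, 73 of 75 genes were called, the percentile was 43.8 and 6 stood apart. Of 600 values under alternatives for the 60 genes picked by the naming rules above, 592 kept their call and none changed sign. Genes named only for their role or promoter were not among the 60. Without ESC replicate 1, Bach2 (0.98) and Sorcs1 (1.19) lost the call, as did Bach2 (1.01) without ESC replicate 3. Arhgap29 gained it in 4 (1.71 to 2.50) and Foxd1 in 1 (3.88 without NPC replicate 3). The replicate numbers did not pair the cell types: deviations of same-numbered arrays correlated at 0.0264, 0.011 and -0.00645. The causes were not tested.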
